A study of Mus musculus with 2 samples.

Results

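The genes described here are 53 genes of the Wnt signalling pathway: receptors, secreted inhibitors, agonists, intracellular transducers, and ligands with the enzyme that modifies them. They were chosen by name from the 21937 genes of the deposited table, and all 53 are in it. A mean of at least 10 normalised reads over both groups was reached by 51 of them, against 14939 of the 21937 genes. Rspo2 lies just above that level at 11.9, and Wnt2 and Dkk4 lie below it at 3.35 and 1.98. The cells were wild-type mouse embryonic stem (ES) cells of mixed 129Sv-C57Bl/6 strain, grown without feeder cells. They were given 500 nM ICRF-193, a catalytic inhibitor of topoisomerase II, or the solvent DMSO for 16 h, and total RNA was taken for messenger RNA sequencing. Each group is labelled as 3 replicates. The labels do not say that these came from separate cultures, so all p-values below measure only the spread between these libraries, which may be technical.

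Wnt proteins are lipid-modified secreted signals. They bind a frizzled receptor together with the co-receptor LRP5 or LRP6, and this stops a complex of Axin, APC and the kinase GSK3 from marking beta-catenin for destruction. Beta-catenin then enters the nucleus and joins the TCF/LEF transcription factors. In mouse ES cells the pathway is known to support self-renewal, in part by relieving repression by TCF7L1, and later it directs cells towards the primitive streak.

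The deposited table holds group means in normalised reads, that is, reads scaled by each library's size factor. Whole reads per library were worked back from the printed digits, and each group's libraries are called A, B and C here, A having the largest size factor; the letters are not the labels' replicate numbers. The 6 libraries held between 27186157 and 43507141 recovered reads. Library A differed from B and C in each group. Summed over a list of 8 fibroblast and feeder cell markers, DMSO-A held 9.97 times the mean of DMSO-B and DMSO-C, and ICRF-193-A held 7.21 times that of its group. Of these 8 markers 5 were over 2-fold higher in DMSO-A, and Col1a1 alone made up 12908 of its sum. Thy1 and Dcn were lower in DMSO-A (185 against 281 and 311, and 8.76 against 12.9 and 15.1), and Lum was at 0 or 1 read in every library. The sum ran from 1782 to 17884 in DMSO and from 2506 to 20399 in ICRF-193. For 8 markers of primitive and visceral endoderm (7 over 2-fold higher in DMSO-A) the ratios were 3.48 and 2.41, with Afp and Ttr, which mark visceral endoderm, at 5.61 normalised reads or fewer in every library. For the 2-cell-like list they were 8.33 and 6.68, with Tcstv1 and Tcstv3 at 0 in every library. The 8 ES cell markers, Pou5f1 and Nanog among them, were present in every library. Their sums were 126601 to 138255 in DMSO and 82111 to 96689 in ICRF-193. Of these 8 markers, 1 passed as lower in the authors' deposited table (adjusted p under 0.05). Pou5f1, Nanog, Esrrb, Klf4 and Tdgf1 overlapped between groups, while Sox2, Zfp42 and Dppa5a did not. Summed markers of mesoderm and primitive streak (7 genes) ran from 661 to 1223 in DMSO and from 1395 to 2216 in ICRF-193. Of these 7 genes, 0 passed by the same rule. Mixl1, Tbx6, Eomes and Hand1 overlapped between groups, while T, Mesp1 and Kdr did not. Summed markers of neuroectoderm and neurons (6 of 7 listed genes with values) ran from 7701 to 10367 in DMSO and from 10403 to 13962 in ICRF-193. Members of this neural list went both ways. Neurod1 was at 593 to 1524 in DMSO and 2135 to 3560 in ICRF-193, while Pax6 was at 482 to 564 and 166 to 193 and Sox1 at 118 to 215 and 51.6 to 113. The part of these markers in the results below was not tested. In bulk RNA, fewer cells of a type and less RNA per cell cannot be told apart.

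The comparison asks how these genes changed when topoisomerase II was inhibited. Judged by the authors' deposited table (DESeq, adjusted p under 0.05 over all genes with reads), 4 of the 51 genes rose and 3 fell. The risen genes were the R-spondin receptor gene Lgr6, the frizzled gene Fzd10, the ligand gene Wnt4 and Sp5, a transcription factor gene that Wnt signals switch on. The fallen genes were the frizzled genes Fzd5 and Fzd7 and the secreted inhibitor gene Sfrp1. Among all genes of the same minimum level in the authors' deposited table, 7.18% rose and 1.57% fell, 8.75% in either direction, against 13.7% of these 51; over all genes with reads, 5.97% rose and 1.26% fell. This difference in shares was not tested, and nothing particular to the pathway is read from it. At an unadjusted p under 0.05 (DESeq), 8 of the 51 were higher and 5 lower, where 13.2% and 6.71% of all genes of this level were (19.9% in either direction). For all 7 called genes the 3 libraries of each group did not overlap. The groups were apart in the same way for 19 of the 51 genes (37.3%), 11 higher and 8 lower, which is the share among all genes of this level (37.4% in either direction, 18.5% higher and 18.9% lower).

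**Figure D1:**
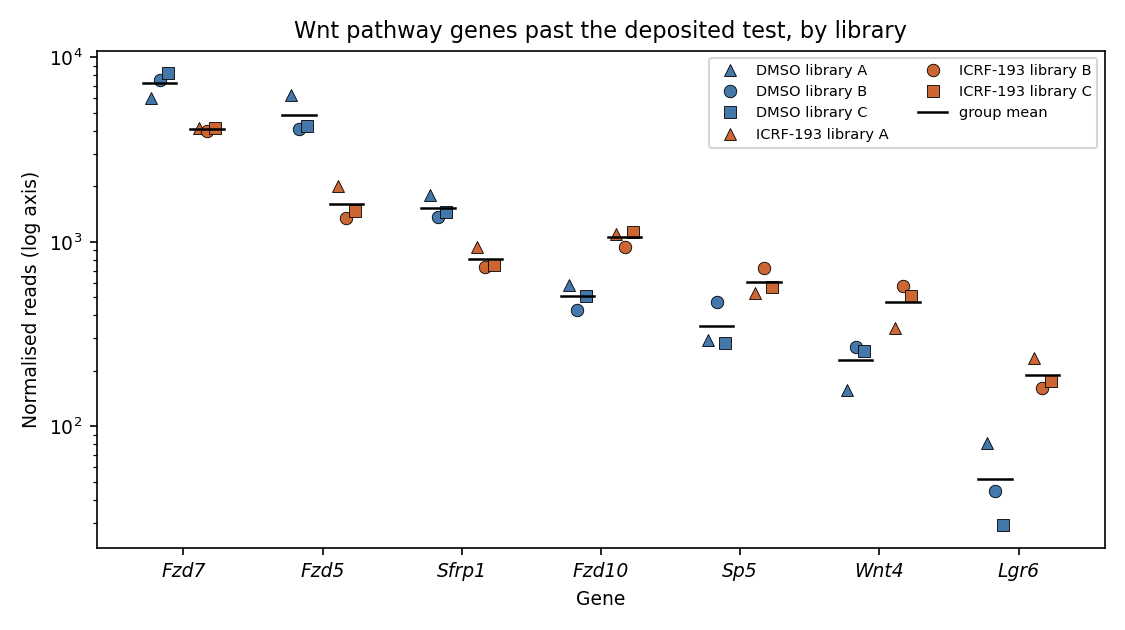
Normalised reads (log axis) of the 7 Wnt pathway genes past the deposited test, with each library as a point (triangle A, circle B, square C) and the group mean as a line. For each gene the 3 ICRF-193 libraries lie wholly below (Fzd7, Fzd5, Sfrp1) or wholly above (Fzd10, Sp5, Wnt4, Lgr6) the 3 DMSO libraries.

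On the recovered reads, limma-voom called 9 of the 51 genes (5 higher, 4 lower), against a background of 15.7% of genes in either direction, 9.76% higher and 5.95% lower. It shared 5 calls with the deposited test, Fzd5, Fzd7, Fzd10, Sfrp1 and Lgr6. It left out Sp5 and Wnt4, and it added Fzd8 (lower) and Rspo4, Tcf7 and Wnt7b (higher). With 1 library left out, these 4 added calls were all lost without DMSO-B, DMSO-C, ICRF-193-B or ICRF-193-C (limma-voom, adjusted p from 0.0825 to 0.17), and Rspo4 and Tcf7 also without either library A and Wnt7b without ICRF-193-A (adjusted p from 0.0562 to 0.0788). With a term that sets libraries A apart from B and C (the split term), limma-voom called 20 of the 51 higher and 13 lower, where 27.1% and 32.6% of all genes were called (59.7% in either direction). Only some of these calls are named below. Without both libraries A it called 15 higher and 15 lower of the 49 genes it tested, where 25.4% and 28.7% of all genes were called (54.1% in either direction). The median log2 fold change over the 51 genes was 0.15 (0.15 in libraries A, 0.12 in libraries B and C), beside -0.047 over all genes of this level (-0.048 and -0.039). Total read scaling raised the median over all genes by 0.12 to 0.077, and limma-voom then called 7 of the 51 higher and 4 lower, where 12.3% and 2.78% of all genes were called. With the split term as well it called 25 higher and 11 lower, where 35.5% and 20.6% of all genes were called (56% in either direction).

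**Figure D2:**
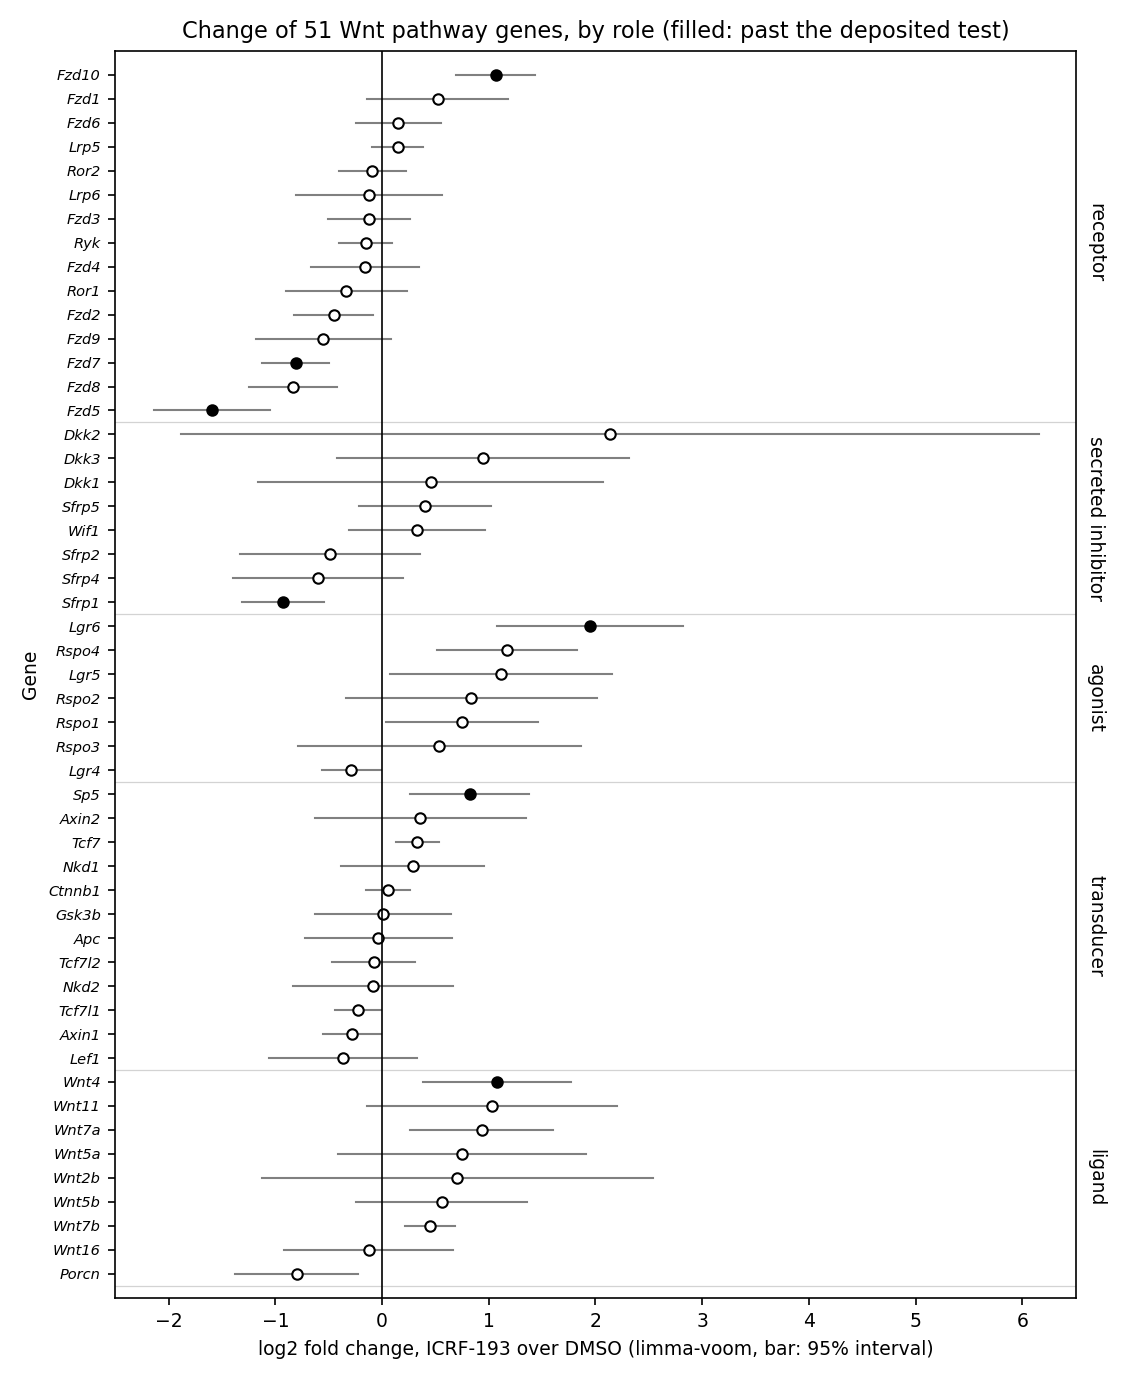
Log2 fold change (ICRF-193 over DMSO) of the 51 genes by role from limma-voom on recovered reads, with 95% intervals as bars; filled points passed the deposited test. Points of the secreted Dickkopf genes and of Wnt2b have the widest bars, while those of Fzd5 and Fzd7 lie wholly below 0 and those of Fzd10 and Lgr6 wholly above it.

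Among the 15 receptor genes, the main frizzled transcripts fell and a minor one rose. Of these 15 genes 1 rose, 2 fell and 12 did not pass in the authors' deposited table. Fzd5 was at 6252, 4089 and 4229 normalised reads in DMSO-A, DMSO-B and DMSO-C and at 1999.5, 1349 and 1462 in the ICRF-193 libraries A, B and C. All 3 treated libraries lay far below all 3 controls, and library A was the highest of its group in both. The Fzd5 means were 4856 ± 1210 and 1604 ± 348 (SD, n = 3), a 3.03-fold fall. Its log2 fold change was -1.60 in the authors' deposited table (adjusted p = 6.93e-05), and limma-voom gave -1.60 with a standard error of 0.23 (adjusted p = 0.00827). Of the Fzd5 exons 17.8% overlap the annotated opposite-strand gene Gm38058, and no source used here says whether the counting used strand, so reads of the pair cannot be told apart there.

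Fzd7 was at 6035, 7557 and 8190.3 normalised reads in DMSO-A, DMSO-B and DMSO-C. In the same order it was at 4165, 3966 and 4158 with ICRF-193. The treated libraries lay within a narrow band below every control, and DMSO-A was the lowest control. The means were 7261 ± 1108 and 4096 ± 113 (SD, n = 3), a 1.77-fold fall. The authors' deposited table gives Fzd7 a log2 fold change of -0.83 (adjusted p = 0.0172), and limma-voom -0.81 with a standard error of 0.13 (adjusted p = 0.012). The fall was -0.54 in libraries A (ICRF-193-A against DMSO-A alone, here and below) and -0.95 in libraries B and C.

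Fzd10 moved the other way. It was at 586, 429 and 507 normalised reads in DMSO-A, DMSO-B and DMSO-C and at 1105, 942 and 1132 in the ICRF-193 libraries in the same order. Every treated library exceeded every control, and the rise was of like size in libraries A (0.92 on the log2 scale) and in B and C (1.15). The means were 507 ± 78.6 and 1060.0 ± 103 (SD, n = 3), a 2.09-fold rise. For Fzd10 the authors' deposited table gives a log2 fold change of 1.06 (adjusted p = 0.00118), and limma-voom gave 1.06 with a standard error of 0.15 (adjusted p = 0.00872). With 1 library left out, limma-voom no longer called Fzd5 without ICRF-193-B (adjusted p = 0.0514), Fzd10 without ICRF-193-C (adjusted p = 0.0505), or Fzd7 without DMSO-B, ICRF-193-B or ICRF-193-C (adjusted p = 0.0659, 0.0713 and 0.0616).

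The other frizzled genes did not pass in the authors' deposited table. Fzd8 was at 203, 206 and 239.9 normalised reads in the 3 DMSO libraries and at 143, 116 and 104 in the 3 ICRF-193 libraries, so the groups did not overlap. The deposited table gives it -0.84 (adjusted p = 0.0554), and limma-voom called it lower (adjusted p = 0.0245). Fzd2 was at 1307, 1388 and 1532 in DMSO and at 1249, 966 and 889 in ICRF-193 (libraries A, B and C), with a deposited log2 fold change of -0.45 (adjusted p = 0.398 in the authors' deposited table). The Fzd2 groups did not overlap either, but the gap was -0.066 in libraries A and -0.65 in B and C. Fzd9 overlapped, with 218 to 406 normalised reads in DMSO and 173 to 230.1 in ICRF-193. Fzd1 overlapped too and leaned upwards, with 116 to 230.0 in DMSO and 202 to 277 in ICRF-193. For Fzd3, Fzd4 and Fzd6 the log2 fold change ran from -0.15 to 0.16 in the authors' deposited table.

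Set on one scale as normalised reads per kilobase (kb) of exon, Fzd7 led in DMSO at 1602 ± 244, followed by Fzd5 at 702 ± 175 and Fzd2 at 385 ± 31.2 (SD, n = 3). Fzd10, Fzd9 and Fzd6 followed at 156 ± 24.2, 136 ± 41.0 and 116 ± 14.2 reads per kb, levels whose spreads overlap (SD, n = 3). Fzd3, Fzd1, Fzd8 and Fzd4 were lowest, between 57.4 and 23.2 reads per kb. In ICRF-193 Fzd7 still led at 904 ± 24.9 reads per kb, but Fzd10 was next at 326 ± 31.6, then Fzd2 at 282 ± 51.7 and Fzd5 at 232 ± 50.3 (SD, n = 3). The last 3 are within their spread of a neighbour. Summed over all 10 frizzled genes, reads per kb were 3182, 3146 and 3436 in DMSO-A, DMSO-B and DMSO-C and 2294, 1981 and 2066 in the ICRF-193 libraries. The frizzled sum was thus lower in every treated library than in any control. The share of that sum held by Fzd5 and Fzd7 together was 70.3%, 71.8% and 70.4% in DMSO and 52.7%, 54.0% and 54.7% in ICRF-193. Fzd10 held 4.19% to 5.67% of it in DMSO and 14.6% to 16.9% in ICRF-193. These shares include the called genes and are a description.

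**Figure D3:**
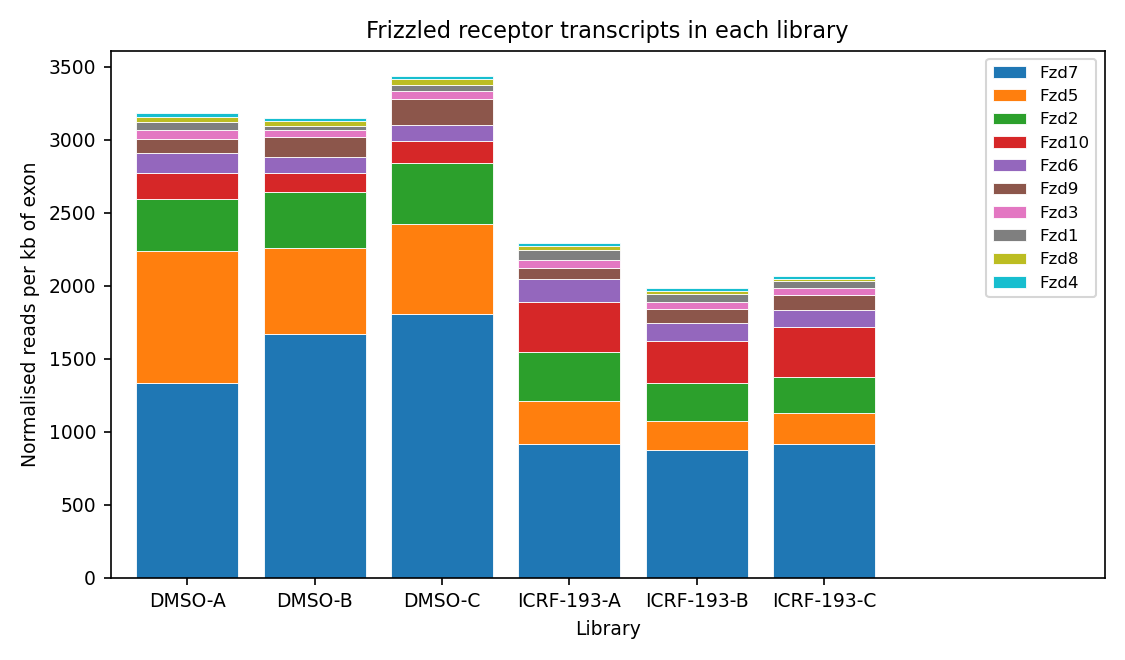
Stacked normalised reads per kb of exon of the 10 frizzled genes in each of the 6 libraries. The bars of ICRF-193 are lower (1981 to 2294 against 3146 to 3436), with a smaller Fzd7 and Fzd5 part and a larger Fzd10 part in all 3.

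The co-receptor genes gave no call in the authors' deposited table. Lrp5 was at 4328, 3760 and 4148 normalised reads in DMSO-A, DMSO-B and DMSO-C and at 4817, 4251 and 4494 in ICRF-193 in the same order. These overlapping groups gave a log2 fold change of 0.15 in the authors' deposited table (adjusted p = 0.907), with a limma-voom interval of -0.09 to 0.39. Limma-voom called Lrp5 higher with the split term (adjusted p = 0.0343) but not without both libraries A (adjusted p = 0.0984). Lrp6 was at 2886 to 5249 in DMSO and 2789.8 to 4508 in ICRF-193, with library A highest in both groups, and its deposited log2 fold change was -0.13. The other Wnt receptors Ror1, Ror2 and Ryk, relatives of receptor tyrosine kinases, did not pass in that table either. Ryk, the most abundant of them, was at 4274, 4828 and 5164 in DMSO and at 4076, 4295 and 4389 in ICRF-193 (libraries A, B and C). The groups overlap, and the authors' deposited table gives -0.16 (adjusted p = 0.898). Limma-voom called Ryk lower with the split term (adjusted p = 0.0255) and without both libraries A (adjusted p = 0.0208). It called Ror1 lower only without both libraries A (adjusted p = 0.0454). These 2 fits called 59.7% and 54.1% of all genes in either direction. Ror2 stood at 1469 ± 140 and 1381 ± 161 and Ror1 at 120.4 ± 12.9 and 97.4 ± 28.7 normalised reads (SD, n = 3, DMSO then ICRF-193).

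Of 8 secreted inhibitor genes with enough reads, 1 fell and 7 did not pass in the authors' deposited table. The fallen gene, Sfrp1, encodes a secreted frizzled-related protein, a soluble decoy that binds Wnt. It was at 1793, 1363 and 1446 normalised reads in DMSO-A, DMSO-B and DMSO-C and at 939.5, 731 and 754 in ICRF-193 in the same order. All treated libraries lay below all controls, and the fall was as large in libraries A (-0.93) as in B and C (-0.92). The means were 1534 ± 228 and 808 ± 114 (SD, n = 3), a 1.90-fold fall. The log2 fold change of Sfrp1 was -0.92 in the authors' deposited table (adjusted p = 0.00408), and limma-voom gave -0.93 with a standard error of 0.16 (adjusted p = 0.0147). Limma-voom no longer called Sfrp1 without DMSO-C, ICRF-193-B or ICRF-193-C (adjusted p = 0.0524, 0.0813 and 0.0751).

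Sfrp2 and Sfrp4, decoys of the same family, were lower by their means, but the libraries overlapped. Sfrp2 was at 688, 1342 and 1535 normalised reads in DMSO-A, DMSO-B and DMSO-C and at 579, 936 and 915 in ICRF-193. Within each group library A was lowest, and among libraries B and C both treated values lay below both controls. In the authors' deposited table Sfrp2 had a log2 fold change of -0.55 (adjusted p = 0.637). Limma-voom called it lower only with the split term or without library DMSO-A or both libraries A (split term: adjusted p = 5.54e-04). The split term fit called 59.7% of all genes in either direction. An annotated antisense gene, Gm26771, covers 16.1% of the Sfrp2 exons. Sfrp4 was at 276, 455 and 508 in DMSO and at 175, 320 and 318 in ICRF-193 (libraries A, B and C), with -0.61 in the authors' deposited table (adjusted p = 0.464). Sfrp5 leaned upwards from 75.0 ± 21.2 to 97.5 ± 20.5 normalised reads (SD, n = 3). Wif1, another Wnt-binding inhibitor, was at 10.8 to 11.9 in DMSO and 12.3 to 17.6 in ICRF-193, few reads in every library.

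The Dickkopf genes, whose products other than the divergent DKK3 block LRP5 and LRP6, were uneven between libraries. Dkk3 was at 533, 142 and 157 normalised reads in DMSO-A, DMSO-B and DMSO-C and at 754, 374 and 322 in ICRF-193. DMSO-A exceeded ICRF-193-B and ICRF-193-C, so the groups overlap, although among libraries B and C both treated values lay above both controls. The Dkk3 means were 277 ± 222 and 483 ± 236 (SD, n = 3). Its log2 fold change was 0.80 in the authors' deposited table (adjusted p = 0.756), and limma-voom without both libraries A gave 1.22 (adjusted p = 7.78e-05). That fit rests on libraries B and C only and called 54.1% of all genes in either direction. Dkk1 was at 135, 29.8 and 42.1 in DMSO and at 159, 61.2 and 49.4 in ICRF-193 (libraries A, B and C). Dkk2 was almost confined to libraries A, at 38.2 against 0.992 and 0 in DMSO and at 57.2 against 10.4 and 3.37 in ICRF-193. Dkk4 had 4 reads in all DMSO libraries together and 8 in all ICRF-193 libraries.

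The 7 agonist genes encode the secreted R-spondins, which amplify Wnt signals by protecting frizzled from degradation, and their receptors LGR4 to LGR6. Of the 7, by the authors' deposited table, 1 rose, 0 fell and 6 did not pass, with 4 at an unadjusted p under 0.05, all higher (DESeq; 13.2% of all genes of this level were higher by that rule). With 7 genes nothing is read from this count. Lgr6 was at 81.2, 44.6 and 29.2 normalised reads in DMSO-A, DMSO-B and DMSO-C and at 235, 161 and 177 in ICRF-193 in the same order. Every treated library was well above every control. The means were 51.7 ± 26.7 and 191.0 ± 38.9 (SD, n = 3), a 3.70-fold rise and the largest fold among the 51 genes. Lgr6 had a log2 fold change of 1.89 in the authors' deposited table (adjusted p = 7.18e-06), and limma-voom gave 1.94 with a standard error of 0.36 (adjusted p = 0.0185). Limma-voom lost the Lgr6 call without DMSO-B, DMSO-C, ICRF-193-B or ICRF-193-C (adjusted p = 0.0863, 0.0563, 0.0661 and 0.0693).

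Lgr4 was by far the main receptor of this family, at 965 ± 102 reads per kb in DMSO against 7.54 ± 3.90 for Lgr6 and 1.76 ± 0.717 for Lgr5 (SD, n = 3). It was at 5083, 5663 and 6282 normalised reads in DMSO-A, DMSO-B and DMSO-C and at 4256, 4687 and 4965 in ICRF-193. The groups did not overlap, but the authors' deposited table gives a log2 fold change of only -0.29 (adjusted p = 0.666), and the limma-voom interval was -0.56 to -0.01 (adjusted p = 0.142). Because Lgr4 dominates, the summed reads per kb of the 3 receptors were lower with ICRF-193 (763 to 873 against 877 to 1074), while the minor member Lgr6 rose. Lgr5, a stem cell marker of several tissues, was at 11.1, 25.8 and 17.3 in DMSO and at 58.2, 27.0 and 31.4 in ICRF-193 (libraries A, B and C). Its deposited log2 fold change was 1.10 (adjusted p = 0.259 in the authors' deposited table). Taken apart, the log2 fold change was 2.39 in libraries A and 0.44 in B and C.

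All 4 R-spondin genes had higher means in ICRF-193, and none passed the deposited test. Rspo1, the most abundant, was at 149.6, 256 and 262 normalised reads in DMSO-A, DMSO-B and DMSO-C and at 265, 395 and 444 in ICRF-193. The groups just failed to overlap, since ICRF-193-A barely exceeded DMSO-C. The authors' deposited table gives Rspo1 0.73 (adjusted p = 0.161), with a limma-voom interval of 0.04 to 1.46 (adjusted p = 0.139). Rspo4 was at 11.1, 13.9 and 8.65 in DMSO and at 27.1, 21.8 and 28.1 in ICRF-193. The Rspo4 groups were apart on few reads, with a deposited log2 fold change of 1.19 (adjusted p = 0.211 in the authors' deposited table), and limma-voom called it higher (adjusted p = 0.0352). Rspo2 and Rspo3 overlapped between groups at 8.59 ± 5.03 to 15.2 ± 5.68 and 29.0 ± 12.3 to 44.7 ± 30 normalised reads (SD, n = 3). Summed R-spondin reads per kb were 96.8, 144 and 151 in the DMSO libraries and 178, 226 and 251 in the ICRF-193 libraries.

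Of 12 transducer genes 1 rose and 11 did not pass in the authors' deposited table. The genes of the destruction complex and beta-catenin gave no call there, with limma-voom intervals from narrow (Ctnnb1) to wide (Apc, Gsk3b and Axin2). Ctnnb1, which encodes beta-catenin, was at 41092, 36602 and 37754 normalised reads in DMSO-A, DMSO-B and DMSO-C and at 42778, 38135 and 39296 in ICRF-193. It was the most abundant of the 53 genes per kb as well, and its groups overlapped. Its log2 fold change was 0.06 in the authors' deposited table (adjusted p = 1), with a limma-voom interval of -0.15 to 0.27. The reads of Ctnnb1 per library were chosen among several combinations by their likelihood, and 14.6% of its exons overlap the opposite-strand gene Ulk4. Apc, a scaffold of the destruction complex, was at 9674, 5694 and 5377 in DMSO and at 8833, 6101 and 5170.0 in ICRF-193 (libraries A, B and C). Library A was highest in both groups, which leaves a wide limma-voom interval of -0.72 to 0.66 around -0.034. Gsk3b, the kinase of the complex, had a deposited log2 fold change of -0.00 and the same excess of library A (3922 and 3674, against 2254 to 2504 in the other libraries).

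The 2 Axin genes differed in direction by their means. Axin1, the constitutive scaffold, was at 4054 ± 278 and 3350 ± 358 normalised reads (SD, n = 3, DMSO then ICRF-193), and the authors' deposited table gives -0.28 (adjusted p = 0.672). Limma-voom called Axin1 lower with the split term (adjusted p = 0.002) and without both libraries A (adjusted p = 0.00302), fits that called 59.7% and 54.1% of all genes. Axin2, a feedback inhibitor that Wnt signals induce, was at 1046, 631 and 469 in DMSO and at 1455, 763 and 605 in ICRF-193 (libraries A, B and C). Library A stood above B and C in both groups, and the groups overlapped also among libraries B and C. Axin2 had 0.40 in the authors' deposited table (adjusted p = 0.889). With a split term limma-voom did call it higher (adjusted p = 0.0111), but without both libraries A it did not (adjusted p = 0.0957). Nkd1, another induced inhibitor, which binds Dishevelled, was at 200.5 ± 47.7 and 249.7 ± 81.3 (SD, n = 3), and its relative Nkd2 at 343 ± 108 and 314 ± 77.1 (SD, n = 3).

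Among the TCF/LEF genes, Tcf7 and Tcf7l1 made up nearly the whole. Tcf7l1, best known in ES cells as a repressor, was at 4785, 4238 and 4320.5 normalised reads in DMSO-A, DMSO-B and DMSO-C and at 3741, 3849 and 3812 in ICRF-193. Its groups did not overlap, at a small difference of -0.23 in the authors' deposited table (adjusted p = 0.756) and a limma-voom interval of -0.44 to -0.01 (adjusted p = 0.139). Tcf7, mostly an activator, was at 2756, 2919 and 2826 in DMSO and at 3543, 3630.0 and 3518 in ICRF-193 (libraries A, B and C). The libraries of each group lay close together, and the groups were apart. The deposited log2 fold change of Tcf7 was 0.33 (adjusted p = 0.56 in the authors' deposited table), and limma-voom called it higher (standard error 0.08, adjusted p = 0.0418). As a ratio of reads per kb, Tcf7l1 over Tcf7 was between 0.971 and 1.16 in DMSO and at 0.706, 0.709 and 0.725 in ICRF-193. This ratio, chosen after the values were seen, was below every control in every treated library. Lef1 was at 377 to 462 normalised reads in DMSO and 237 to 519 in ICRF-193, and Tcf7l2 at 497 to 523 and 398 to 588, so both overlapped.

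Sp5, a transcription factor gene that beta-catenin is known to activate directly, was the called transducer. It was at 295, 470.2 and 283 normalised reads in DMSO-A, DMSO-B and DMSO-C and at 529, 721 and 567 in ICRF-193 in the same order. All treated libraries were above all controls, and library B was highest in both groups. The means were 349.6 ± 105 and 605 ± 102 (SD, n = 3), a 1.73-fold rise. For Sp5 the authors' deposited table gives a log2 fold change of 0.79 (adjusted p = 0.0307). Limma-voom gave 0.82 with a standard error of 0.23 and did not call it (adjusted p = 0.0596). The fit with the split term called it (adjusted p = 0.0012), along with 59.7% of all genes in either direction.

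Because TCF/LEF proteins can bind the letters CTTTGAT, the 250 bases before the start of each gene were searched for this word on both strands (ATCAAAG on the other), in RefSeq promoters of build GRCm38.p6. Only this exact word was searched, so a promoter without it may hold another form of the site. A promoter was at hand for 35 of the 53 genes, and 3 of the 35 (8.57%) held the word, Sp5, Wnt5b and Wnt11, against 3.72% of all 27025 genes. This difference in shares rests on 3 genes and was not tested. Apc, Axin1, Dkk3, Dkk4, Fzd2, Fzd3, Fzd6, Fzd8, Lgr5, Lrp5, Lrp6, Porcn, Rspo2, Rspo3, Sfrp1, Sfrp4, Wnt5a and Wnt7b had no entry. The 3 sequences are shown because Sp5 passed the test and they let the position of the word be seen. They run 5′ to 3′ on the gene's strand and end just before the start, with the word in capitals. The Sp5 window is chr2:70474673-70474922 (plus strand), that of Wnt11 is chr7:98834862-98835111 (plus strand) and that of Wnt5b is chr6:119449387-119449636 (minus strand).
Sp5: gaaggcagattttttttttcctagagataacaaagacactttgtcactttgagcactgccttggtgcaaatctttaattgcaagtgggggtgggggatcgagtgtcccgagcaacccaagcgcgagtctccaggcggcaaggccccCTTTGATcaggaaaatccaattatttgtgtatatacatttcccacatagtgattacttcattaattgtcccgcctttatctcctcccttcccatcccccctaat
Wnt11: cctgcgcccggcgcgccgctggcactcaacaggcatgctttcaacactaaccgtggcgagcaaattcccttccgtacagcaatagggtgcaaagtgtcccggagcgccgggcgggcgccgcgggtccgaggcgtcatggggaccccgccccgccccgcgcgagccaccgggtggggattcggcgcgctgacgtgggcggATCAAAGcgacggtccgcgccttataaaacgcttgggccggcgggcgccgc
Wnt5b: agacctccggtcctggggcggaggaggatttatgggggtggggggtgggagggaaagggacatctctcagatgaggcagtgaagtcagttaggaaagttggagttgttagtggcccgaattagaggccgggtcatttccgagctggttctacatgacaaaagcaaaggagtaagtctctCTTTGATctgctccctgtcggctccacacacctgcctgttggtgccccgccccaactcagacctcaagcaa
In Sp5 the word starts 104 bases before the start of the gene, in Wnt5b 71 bases before one of its annotated starts, and in Wnt11, where it lies on the other strand, 51 bases before. A match of letters is a description and does not show that a factor binds there. Wnt5b and Wnt11 did not pass the deposited test, as their values below show.

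Of 9 ligand genes with enough reads, counting the ligand enzyme gene Porcn, 1 rose and 8 did not pass in the authors' deposited table. Of the 8 Wnt genes, 7 had higher means in ICRF-193, in libraries A and in libraries B and C alike, and Wnt16 was the exception. Of all genes of this level, 45.8% had a higher mean in ICRF-193, and this difference was not tested. Wnt4, a ligand of kidney and gonad development among others, was at 158, 269.8 and 256 normalised reads in DMSO-A, DMSO-B and DMSO-C and at 340.3, 574 and 511 in ICRF-193 in the same order. Library A was lowest in both groups, and all treated libraries exceeded all controls. The means were 228 ± 60.8 and 475 ± 121 (SD, n = 3), a 2.08-fold rise. Wnt4 had a log2 fold change of 1.06 in the authors' deposited table (adjusted p = 0.0178). Limma-voom gave 1.07 with a standard error of 0.29 and narrowly did not call it (adjusted p = 0.052). With the split term it did (adjusted p = 8.06e-06), in a fit that called 59.7% of all genes in either direction.

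Wnt7b was the most abundant of these ligand genes, at 177 ± 7.44 reads per kb in DMSO and 242 ± 9.01 in ICRF-193 (SD, n = 3). It was at 855, 909.7 and 841 normalised reads in DMSO-A, DMSO-B and DMSO-C and at 1225, 1137 and 1193 in ICRF-193. The libraries of a group were close together and the groups apart, and the authors' deposited table gives 0.45 (adjusted p = 0.362). Limma-voom called Wnt7b higher (adjusted p = 0.029) at the same size, although 6.61% of its exons are shared with the antisense gene AU022754. Its paralog Wnt7a was at 81.2, 128 and 92.9 in DMSO and at 142, 249.9 and 189 in ICRF-193 (libraries A, B and C), again without overlap. The deposited log2 fold change of Wnt7a was 0.94 (adjusted p = 0.0698 in the authors' deposited table).

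The remaining ligand genes overlapped between groups or had few reads. Wnt5a, the main ligand of the ROR receptors, was at 176, 62.5 and 95.1 normalised reads in DMSO-A, DMSO-B and DMSO-C and at 294, 115 and 155 in ICRF-193. Wnt11 was at 70.8, 22.8 and 28.1 in DMSO and at 114, 53.9 and 69.6 in ICRF-193, and Wnt2b at 259, 56.5 and 50.8 in DMSO and at 337, 122 and 87.5 in ICRF-193. In all 3 of these genes library A was the highest of its group, and DMSO-A exceeded at least 2 of the treated libraries. Wnt5b was at 56.5, 72.4 and 75.6 in DMSO and at 61.2, 129 and 125 in ICRF-193, where library A was the lowest. The authors' deposited table gives these 4 genes log2 fold changes from 0.58 to 0.97, with adjusted p from 0.445 to 0.952. All 4 were called higher by limma-voom with the split term (adjusted p from 0.0022 to 0.0144). That fit called 27.1% of all genes higher and 59.7% in either direction. Wnt16 was at 9.73 to 15.9 normalised reads in DMSO and 8.98 to 15.6 in ICRF-193. Wnt2, below the level set for description, had 1 read in the 3 DMSO libraries and 18 in the 3 ICRF-193 libraries. That is a ratio of 20.1 with a 95% exact interval from 3.18 to 839, which covers counting error only. The authors' deposited table gives Wnt2 an adjusted p of 0.0896.

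Summed over these 9 Wnt genes, reads per kb were 364, 349 and 324 in DMSO-A, DMSO-B and DMSO-C and 549, 560.1 and 535 in the ICRF-193 libraries. Against this, Porcn, the acyltransferase that loads Wnt proteins with their lipid, leaned downwards. It was at 1946, 1356 and 1327 normalised reads in DMSO and at 1181, 764 and 738 in ICRF-193 (libraries A, B and C). All treated libraries were below all controls, and library A was the highest of its group in both. In the authors' deposited table Porcn had a log2 fold change of -0.79 (adjusted p = 0.079), and limma-voom gave -0.80 with a standard error of 0.24 (adjusted p = 0.0692). Adding the split term, limma-voom called Porcn lower (adjusted p = 3.25e-06), in a fit that called 59.7% of all genes in either direction.

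**Figure D4:**
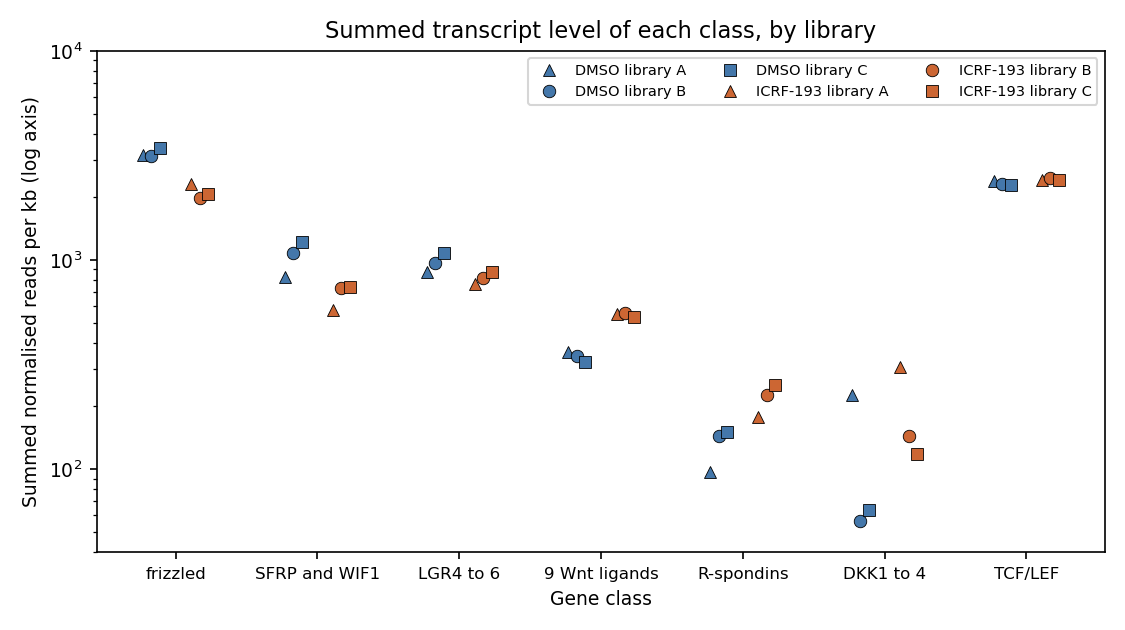
Summed normalised reads per kb (log axis) of 7 classes of Wnt pathway genes in each library, with library A as triangle, B as circle and C as square. The sums of frizzled and of SFRP with WIF1 lie lower in all ICRF-193 libraries, and those of Wnt ligands and R-spondins higher. LGR sums are also lower, but by a narrow gap (at most 873 in ICRF-193 against at least 877 in DMSO). DKK sums overlap with libraries A on top, and TCF/LEF sums differ by little (2286 to 2379 against 2399 to 2458). The sums were not computed with total read scaling.

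Seen by class, the SFRP and WIF1 sum was 833, 1082 and 1222 reads per kb in the DMSO libraries and 577, 731 and 742 in the ICRF-193 libraries (A, B and C). The DKK sum was 226, 56.3 and 64.0 in DMSO and 307, 143 and 118 in ICRF-193, so that libraries A held the most in both groups. The median log2 fold change was -0.15 for receptors, 0.36 for secreted inhibitors, 0.82 for agonists, -0.024 for transducers and 0.62 for ligands, over 15, 8, 7, 12 and 9 genes. With total read scaling the medians were -0.033, 0.49, 0.95, 0.10 and 0.75, so that the sign for transducers flipped. These medians are descriptions of small lists.

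Library A was unlike B and C for many of these genes, in the same way in both groups. The log2 ratio of A to B and C had the same sign in DMSO and in ICRF-193 for 43 of the 51 genes. More than 2-fold higher in library A in both groups were Dkk1, Dkk2, Dkk3, Wnt2b and Wnt5a, and 0 genes were as much lower. No share over all genes stands beside these counts, so nothing particular to the pathway is read from them. The ratio of Wnt2b was 2.25 on the log2 scale in DMSO and 1.67 in ICRF-193, and that of Dkk3 was 1.83 and 1.11. On the low side, Sfrp2 was at -1.06 and -0.68, Sfrp4 at -0.80 and -0.87 and Wnt4 at -0.73 and -0.67. These genes therefore carry a wide spread within each group in any test without a term for the split. Lgr5 was the widest exception in sign, at -0.89 in DMSO and 0.97 in ICRF-193.

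**Figure D5:**
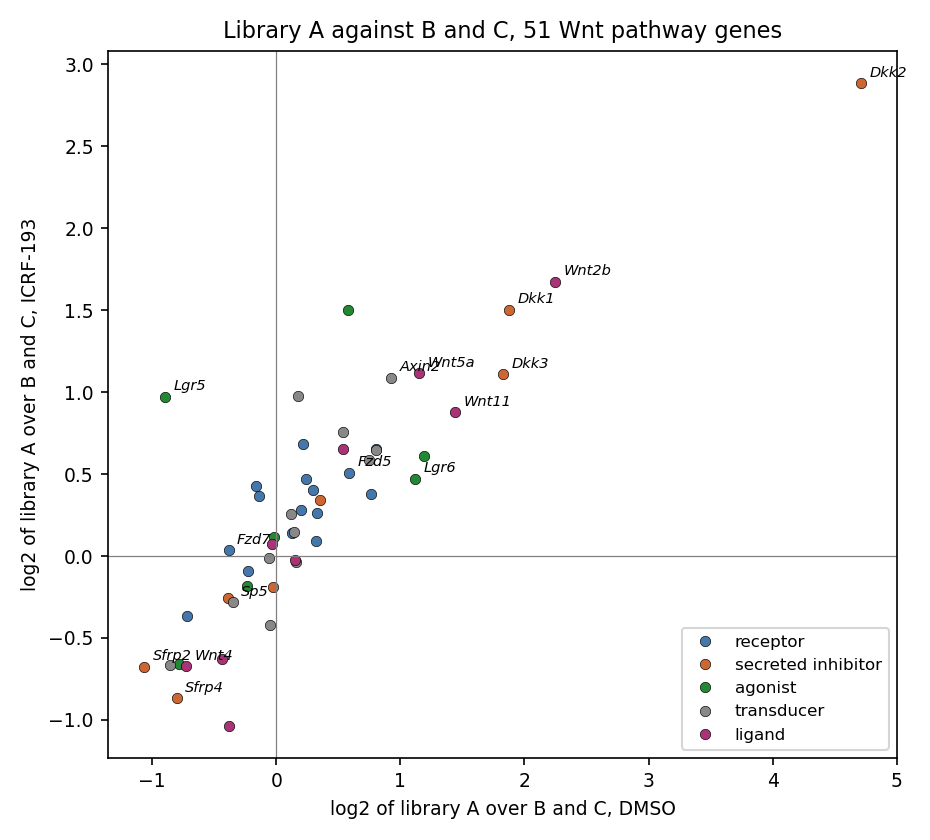
Log2 ratio of library A to the mean of B and C (1 added to each value) in DMSO (x axis) and ICRF-193 (y axis) for the 51 genes, coloured by role. Dkk2, Wnt2b, Dkk1 and Dkk3 lie far to the upper right, Sfrp2, Sfrp4 and Wnt4 to the lower left, and Lgr5 apart in the upper left.

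Other genes of the pathway were taken from 6 lists, 89 genes of which 85 had reads. Of these 85, 3 rose and 2 fell in the authors' deposited table (5.88%, against 7.23% of all genes with reads). Ptk7, a co-receptor in planar cell polarity, rose from 9602 ± 985 to 19339 ± 2343 normalised reads (SD, n = 3). Gpc3, a cell-surface glypican, fell from 2719 ± 156 to 1335 ± 43.3 (SD, n = 3). Dkkl1, a relative of the Dickkopf genes, rose from 90.9 ± 17.8 to 214 ± 25.0, and Frat2, an inhibitor of GSK3, fell from 461 ± 42.9 to 268 ± 15.2 (SD, n = 3). Cxxc4, a Dishevelled-binding inhibitor, rose from 8.01 ± 1.68 to 34.3 ± 9.70 (SD, n = 3). The log2 fold changes of these 5 genes in the authors' deposited table, in the order given, were 1.01, -1.03, 1.24, -0.78 and 2.10 (adjusted p = 0.00103, 0.00115, 0.00117, 0.041 and 0.0022). By list, 2 of 13 extracellular regulators passed (Dkkl1 higher, Gpc3 lower), 2 of 21 cytoplasmic transducers (Cxxc4 higher, Frat2 lower), 1 of 13 planar cell polarity genes (Ptk7 higher), and 0 of 5 secretion genes, 0 of 16 nuclear cofactors and 0 of 20 other Wnt target genes. At an unadjusted p under 0.05 in that table (DESeq), 11.5% of all genes with reads were higher and 5.38% lower (16.9% in either direction). By the same rule the lists gave 0 secretion genes, 4 extracellular regulators higher and 1 lower, 3 cytoplasmic transducers higher and 3 lower, 1 nuclear cofactor higher and 3 lower, 2 planar cell polarity genes higher and 1 lower, and 7 target genes higher and 0 lower. Limma-voom on the recovered reads called 9.76% of all genes higher and 5.95% lower. Of 9 extracellular regulators tested it called 3 higher and 1 lower, and of 21 cytoplasmic transducers 1 higher and 3 lower. Of 13 planar cell polarity genes it called 1 higher and 1 lower. It called 0 of the 5 secretion genes, 2 of the 16 nuclear cofactors (both lower) and 2 of the 19 target genes it tested (both higher). Of these 19 target genes outside the 53, 16 had higher means in ICRF-193, with a median log2 fold change of 0.34 in the authors' deposited table, beside 45.8% of all genes of this level and their median of -0.047. This difference was not tested, and the list was chosen with earlier results of these data known. Nothing particular to the pathway is read from it.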

How the data were processed

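Messenger RNA of 3 libraries per group was sequenced, and 1 table of the comparison was deposited. TopHat, HTSeq and DESeq and build mm9 are named in the submitters' processing notes, without versions. The deposited group means are a signal of reads divided by size factors. The deposited fold is the ratio of the 2 means, the deposited log2 fold change is its logarithm, and the deposited p-value and adjusted p-value (DESeq, Benjamini-Hochberg) are the authors'. The main call was the deposited adjusted p under 0.05.

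Because the deposited means carry 15 significant digits, whole reads per library were solved from them. Of 18759 genes with reads, 18206 had 1 solution, 506 were chosen by a posterior of at least 0.99, and 47 were not resolved. In simulated data 18244 of 18244 genes with 1 solution and 423 of 423 chosen by posterior were exact. The replicate numbers of libraries A, B and C are not known. The unresolved genes hold 8.47% of the summed DMSO means and 7.81% of the ICRF-193 means.

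The reads were tested with limma 3.58.1 (voom, R 4.3.3), with size factors worked back from the deposited means. A gene needed 10 reads or more in 3 libraries, or in 2 where both libraries A were left out, and the main fit tested 14980 genes. In simulated ICRF-193 against DMSO it called 0 of 67 genes at a true log2 change of 0.5, 25 of 65 at 1 and 51 of 66 at 2. With a term for libraries A it called 58 of 67, 65 of 65 and 66 of 66, with 14 false calls among 14706 genes. The simulation gave libraries A of both groups the same shift, and every gene the same spread. That is the form the split term assumes, so these rates were favoured by the setting. In the real data the shift could differ between groups, as for Lgr5, so the rates of false calls there are not known. Alternatives were total read scaling, no filter, each library or both libraries A left out, an adjusted p of 0.1, and other minimum levels and pseudocounts. The split term with total read scaling was added after seeing the data.

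Exonic lengths and overlaps came from GENCODE M21 (GRCm38) and promoters from RefSeq, matched by symbol. The strand setting of the counting is not given in the sources used here. Beside the overlaps named above, opposite-strand genes overlap exons of Lef1 (13.7%), Rspo3 (13.1%), Wnt11 (8.8%), Wnt5a (4.58%), Tcf7l1 (4.56%), Axin2 (3.8%) and Fzd6 (3.15%). The genes, pathway lists and marker lists were chosen with earlier results of these data known. By the rule for naming genes, every gene past the deposited test and the 3 most abundant of each role were given in full, and other pathway genes were named where they passed the deposited test.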

Additional observations from a re-analysis of the deposited data

How the results depend on the processing

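The count of 4 genes higher was 20 with the split term, 7 with total read scaling, 15 without both libraries A and 25 when the split term was joined to total read scaling, and it ranged from 0 to 5 when 1 library was left out (limma-voom). The count of 3 lower was 5 at an adjusted p under 0.1 in the deposited table. By limma-voom it was 13 with the split term, 15 without both libraries A and 11 with the split term joined to total scaling, and it ranged from 0 to 6 when 1 library was left out. The highest counts came without DMSO-A or without ICRF-193-A (5 higher and 6 lower each), where 11.7% and 9.37% of all genes, and 8.29% and 3.86%, were called higher and lower. Without ICRF-193-B the count was 1 higher and 0 lower, and without ICRF-193-C it was 0 and 1, where 2.43% and 0.503% of all genes, and 2.99% and 0.787%, were called. Without DMSO-B or DMSO-C it was 1 and 2 each (3.23% and 0.731%, and 4.14% and 1.36%, of all genes). The median log2 fold change of 0.15 was -0.0757 with a minimum mean of 100 normalised reads, and it ranged from -0.0786 (without ICRF-193-A) to 0.27 when 1 library was left out. Apc, at -0.05 in the deposited table, was at 0.0887 with total read scaling (0.0894 with the split term as well), at 0.0219 without both libraries A, and at 0.24 without DMSO-A, 0.0163 without ICRF-193-B and 0.13 without ICRF-193-C. The cause of these shifts was not tested. Fits that leave out a library have fewer samples than the main fit, in which 9.76% of all genes were called higher and 5.95% lower. Over the 12 limma-voom fits run, Fzd5 and Fzd10 passed in 11 each, Fzd7 and Sfrp1 in 9 each, Lgr6 in 8, Wnt4 in 5 and Sp5 in 4, all with the direction of the deposited table. No analysis paired by replicate was possible because the table has no column per replicate and the recovered libraries carry no replicate number. Values for libraries A compare ICRF-193-A with DMSO-A alone. That match, which the split term also uses, goes by letter and not by a known replicate. Depth limits the genes of few reads (Wif1, Wnt16, Rspo2, Dkk2, Dkk4 and Wnt2).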

Other observations

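The 250 bases before the start had a median GC content of 65.2% over the 44 promoter windows of the 35 genes with an entry, against 52.4% over all 32851 windows. Among the 3 genes that held the TCF/LEF word it was 46.0% for Sp5, 55.6% for Wnt5b and 70.8% for Wnt11. Within the TCF/LEF genes, Tcf7 held 44.1% to 48.5% of the summed reads per kb in DMSO and 55.9% to 56.3% in ICRF-193, and Tcf7l1 held 47.1% to 51.3% and 39.6% to 40.5%.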
